A study of Mus musculus with 6 samples.

Results

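Fructose uptake and breakdown in the jejunum was followed through 6 genes, picked by name from the 23420 genes of the count table: Slc2a5, Slc2a7, Khk, Dak, Mlxipl and Txnip. All 6 passed the filter on low counts, among 13168 genes tested. None of the 6 transcripts passed the test between ob/ob and wild-type jejunum, while the exit carrier Slc2a2 and the pyruvate kinase Pklr rose. Pklr passed in all 17 alternative processings and Slc2a2 in 14. Slc2a2 did not pass when libraries were scaled to 16 pan-epithelial genes (log2 fold change 0.22, edgeR adjusted p = 0.0811). That Slc2a2 and Pklr passed and the 6 did not is no test of a difference between them. For the ratios of Slc2a2 to Slc2a5 and of Pklr to Mlxipl, the exact permutation p was 0.25 after adjustment over 5 ratios. Among the 6, Dak, the enzyme of the last step particular to fructose, came closest to passing, at a mean of 316 against 257 CPM. Counts per library are put on a common scale with the TMM factors of edgeR.

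Fructose enters the enterocyte, the absorptive cell of the villus, from the gut lumen through GLUT5, the carrier encoded by Slc2a5. Ketohexokinase, encoded by Khk, phosphorylates it, the product is split, and triokinase, encoded by Dak (now Tkfc), phosphorylates the glyceraldehyde that is set free, so that the carbon reaches glycolysis and fat synthesis without passing phosphofructokinase. Mlxipl encodes ChREBP, a transcription factor that responds to carbohydrate and binds carbohydrate response elements together with its partner Mlx. Txnip, which encodes a thioredoxin-binding alpha-arrestin that limits glucose uptake, is a well-known target of ChREBP, and Slc2a5 is known to depend on ChREBP in the mouse intestine.

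Bulk RNA sequencing was done on total RNA of whole tissue of proximal jejunum, with the segment given as 1 cm. Each library was a pool of 2 jejuna, with 3 libraries per group. The ob/ob mice carry no functional leptin and overeat throughout life. The controls were C57BL/6J mice, termed WT, and they are not described as littermates of the ob/ob mice. The ob/ob mice were male according to the study. Its methods give male mice, standard chow and a fast before sacrifice as the default, which also covers the WT mice. For the age of these mice no source used here gives a value. The lack of leptin, overeating and obesity all go with the genotype, so they cannot be told apart. The libraries are taken as separate pools, so that p-values measure the spread between pools.

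Depth was 14661981 to 18286080 counts per library, of which the 6 genes took 0.127 to 0.146%. All 12 enterocyte markers were detected, and their summed level was 85050 to 97090 CPM in ob/ob and 68230 to 78920 CPM in WT. Of the 12, 4 passed the test and rose, Mgam, Fabp2, Slc5a1 and Alpi, where 3.77% of all tested genes were called higher. A total of 10 had a log2 fold change above 0, while Lct (-0.21) and Anpep (-0.15) were below it. The 16 genes listed as pan-epithelial summed to 15430 to 16690 CPM in ob/ob and 12440 to 14010 CPM in WT. Of these, 13 had a log2 fold change above 0, while Cdx1 (-0.09), Cldn3 (-0.07) and Lgals4 (-0.11) were below it. Cdx2 and Krt20, 2 of the 16, passed the test and rose. Each of these marker calls was lost when some single libraries of either group were left out, where the log2 fold changes ran from 0.43 to 0.60 for Mgam, 0.46 to 0.64 for Fabp2, 0.37 to 0.56 for Slc5a1, 0.35 to 0.53 for Alpi, 0.28 to 0.38 for Cdx2 and 0.32 to 0.41 for Krt20. Of 7 markers of the distal small intestine, Fabp6 and Fgf15 were under the filter on low counts, and the 5 tested had a median log2 fold change of 0.24. Slc51b was the 1 that rose (0.49, edgeR adjusted p = 0.0393), a call lost without any 1 of the ob/ob libraries or without WT library 2 or 3 (0.39 to 0.52). Slc51a had 0.24, Slc10a2 1.00, Muc13 0.13 and Cubn -0.41, and the 5 markers summed to 3999 to 4441 CPM in ob/ob and 4038 to 4849 CPM in WT. Of 10 markers of the proximal small intestine, 7 were tested, with a median log2 fold change of -0.10 and 2 above 0. They summed to 6452 to 8126 CPM in ob/ob and 6470 to 7956 CPM in WT. In the proximal as in the distal list 1 gene was called higher, against 3.77% of all tested genes. For fibroblasts the sums were 336.8 to 401.4 CPM in ob/ob and 421.2 to 446.7 CPM in WT. In bulk tissue, fewer cells of a type and less RNA per cell cannot be told apart. WT library 2 stood apart in fat cell markers, with Adipoq at 26.8 CPM against 4.34 and 2.71 CPM in the other two WT libraries and 1.05, 0 and 0.833 CPM in ob/ob. The part of epithelial share, of position along the gut and of fat in the results was not tested.

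The promoters of the 6 genes were searched first, because ChREBP binds E-box motifs and several of the genes are placed under its control. The windows ran from 250 bases before to 50 bases after each start site of RefSeq on the mouse build GRCm38.p6. The E-box searched was CACGTG, and the spaced pair was CANGNG, 5 bases of any kind and CNCNTG, a form of the carbohydrate response element. Both read the same on either strand. The E-box was present in 7.15% of 32851 windows and the pair in 0.557%. Among the 6 genes an E-box was found for Khk, 71 bases before its start, and for the upstream start of Mlxipl, 98 bases before it. The Khk E-box lies inside the Khk gene as drawn in GENCODE M21, which starts at 30921431, ahead of the RefSeq start used here. Of 2 further genes named below for their link to ChREBP, Pklr held the pair and Arrdc4 an E-box. These 4 stretches are shown because they are the matches beside genes whose levels are given below, with the motif in capitals, read 5′ to 3′ on the strand of the gene.
Khk, chr5:30921476-30921505, plus strand: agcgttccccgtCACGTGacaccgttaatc
Mlxipl, chr5:135089780-135089809, plus strand: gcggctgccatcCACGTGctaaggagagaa
Pklr, chr3:89136447-89136475, plus strand: ggacgcCACGGGGCACTCCCGTGgttcct
Arrdc4, chr7:68749414-68749443, minus strand: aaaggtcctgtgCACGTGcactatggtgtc
Neither motif was found in the windows of Slc2a5, Slc2a7, Tkfc and Txnip or in the window of the second Mlxipl start, which says only that these letters are not in these windows.

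Slc2a5, the apical fructose carrier, lies on chromosome 4 of GRCm38 from 150119283 to 150144169. Its level was 220.6, 224.0 and 227.0 CPM in the ob/ob libraries, against 217.3, 196.1 and 187.5 CPM in the WT libraries. The groups did not overlap, but WT library 1 lay close below the ob/ob libraries, and most of the gap came from the other two. The mean was 224 ± 3.18 CPM in ob/ob, against 200 ± 15.3 CPM in WT (SD, n = 3). The log2 fold change of ob/ob against WT was 0.16 ± 0.067 (SE), with a 95% interval of 0.01 to 0.31 and an edgeR adjusted p of 0.170, so Slc2a5 did not pass the threshold of 0.05. A total of 32.0% of all tested genes had groups that did not overlap, and 15.8% had every ob/ob library above every WT library, so the same separation in Slc2a5 and Dak, 2 of the 6 genes, was one that many genes shared.

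Slc2a7 encodes GLUT7, a relative of GLUT5 whose substrate is debated, and is its neighbour on chromosome 4, from 150148972 to 150168482 on the same strand. It was measured at 58.1, 55.9 and 54.1 CPM in ob/ob, against 63.2, 65.9 and 53.8 CPM in WT. WT library 3 was the lowest of all 6 libraries, so the groups overlapped. The log2 fold change was -0.12 ± 0.080 (SE; 95% interval -0.30 to 0.06, edgeR adjusted p = 0.376). Over the 6 libraries, which share group and depth, Pearson's r between the log2 levels of both neighbours was -0.16, given as a description.

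**Figure D1:**
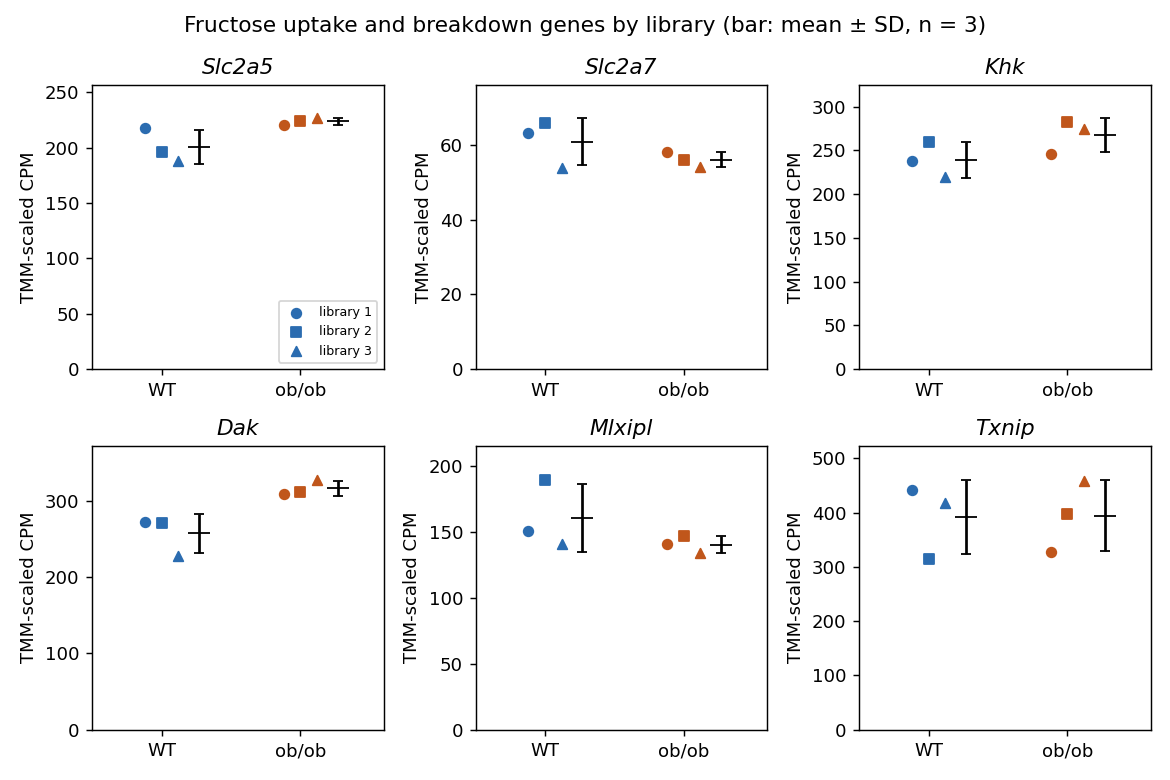
TMM-scaled CPM (y axis, from 0) of the 6 genes in each library, with WT in blue, ob/ob in orange, the library number by symbol, and the mean ± SD in black (n = 3). Slc2a5 and Dak have no overlap between groups, whereas the other 4 genes overlap, and the ob/ob values of Slc2a5 span only 220.6 to 227.0 CPM.

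Khk, the enzyme that commits fructose to breakdown, lies on chromosome 5 from 30921431 to 30931248. It was at 245.4, 282.4 and 274.0 CPM in ob/ob, against 238.1, 259.6 and 219.3 CPM in WT. Library 1 of ob/ob was below WT library 2, so the groups overlapped. The mean was 267 ± 19.4 CPM in ob/ob, against 239 ± 20.2 CPM in WT (SD, n = 3), and the log2 fold change was 0.16 ± 0.081 (SE; 95% interval -0.02 to 0.34, edgeR adjusted p = 0.241). Khk makes isoforms A and C, which differ in affinity for fructose and cannot be told apart in counts per gene.

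Dak, the triokinase gene, lies on the minus strand of chromosome 19 from 10587791 to 10605654. Its level was 308.8, 311.7 and 327.1 CPM in ob/ob, against 272.3, 270.9 and 227.7 CPM in WT. Every ob/ob library was above every WT library. The mean was 316 ± 9.83 CPM in ob/ob, against 257 ± 25.4 CPM in WT (SD, n = 3), and the log2 fold change was 0.30 ± 0.078 (SE), with a 95% interval of 0.12 to 0.48. The adjusted p of the edgeR quasi-likelihood test was 0.0580, just short of the threshold, and 7.18% of tested genes had a smaller p. Dak passed under 4 alternatives, among them the edgeR likelihood ratio test (adjusted p = 0.0275) and DESeq2 (adjusted p = 0.00986). Scaled to the pan-epithelial genes its log2 fold change was 0.02, with an edgeR adjusted p of 0.877. Of the 4617 exon bases of Dak, 596 are shared with Cybasc3 (now Cyb561a3) and 328 with Ddb1 on the opposite strand. The log2 fold changes of these neighbours were -0.22 for Cybasc3 and 0.14 for Ddb1, and neither passed the test (edgeR adjusted p = 0.215 and 0.170).

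Of the 6 genes, 0 passed the edgeR threshold in either direction, where 5.67% of all tested genes passed, 3.77% higher and 1.91% lower in ob/ob. At an unadjusted p under 0.05, 2 of the 6 passed, Slc2a5 and Dak, where 25.9% of all tested genes did, so this count is near the background. DESeq2 called 1 of the 6, Dak, against 8.10% of all genes, the edgeR likelihood ratio test the same 1 against 10.7%, and limma-voom 0 against 5.32%. The median log2 fold change was 0.09 over the 6 genes and -0.01 over all tested genes. The log2 ratio of Dak to Khk, the last against the first kinase, averaged 0.24 ± 0.095 in ob/ob, against 0.10 ± 0.078 in WT (SD, n = 3), and that of Khk to Slc2a5 averaged 0.25 in both groups. Exact two-sided permutation tests gave p = 0.2 and p = 1, and 3 against 3 libraries cannot go below 0.1. The enzymes and the carrier were thus not shown to move unequally.

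Levels were set per kilobase of exon model, the union of all annotated exons of a gene, which compares genes only roughly. On this scale Khk was at 149 ± 10.8 and Txnip at 126 ± 21.0 CPM per kilobase in ob/ob (SD, n = 3). They were followed by Dak at 68.4, Slc2a5 at 65.8, Slc2a7 at 30.0 and Mlxipl at 25.4 CPM per kilobase. In ob/ob only the neighbours Khk and Txnip overlapped in this order. The WT means were 133 for Khk, 125 for Txnip, 58.9 for Slc2a5, 55.7 for Dak, 32.6 for Slc2a7 and 29.0 CPM per kilobase for Mlxipl. In WT the pairs Khk and Txnip, Slc2a5 and Dak, and Slc2a7 and Mlxipl overlapped, and Dak and Slc2a5 stood in the opposite order from ob/ob. The order of Dak and Slc2a5 rests on these lengths. In ob/ob the lowest Dak value was 66.9 and the highest Slc2a5 value 66.7 CPM per kilobase. Message for ketohexokinase was therefore more abundant per length than message for GLUT5 in every library.

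**Figure D2:**
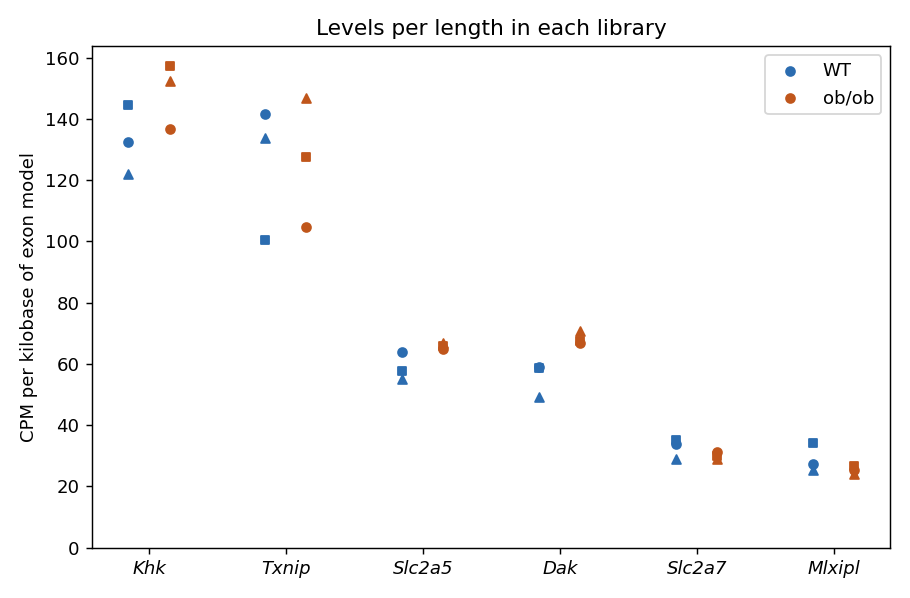
Level per length (y axis, CPM per kilobase of exon model, from 0) of the 6 genes in each of the 6 libraries, ordered by the WT mean. Khk and Txnip form the upper pair, from 100.5 to 157.2, and Slc2a7 and Mlxipl the lower pair, from 24.2 to 35.3.

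Mlxipl, the ChREBP gene, lies on chromosome 5 from 135089890 to 135138382. It was measured at 140.8, 147.0 and 134.0 CPM in ob/ob, against 151.3, 189.9 and 140.8 CPM in WT. WT library 2 was the highest, and the remaining WT libraries lay within or just above the ob/ob range. The log2 fold change was -0.19 ± 0.105 (SE; 95% interval -0.43 to 0.04, edgeR adjusted p = 0.279), and -0.05 without WT library 2, the library high in Adipoq. The isoforms of Mlxipl that start at different first exons cannot be told apart in counts per gene.

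Txnip, on chromosome 3 from 96557957 to 96561883, had the largest SE of the 6 genes. It was at 327.1, 398.0 and 458.1 CPM in ob/ob, against 442.5, 313.9 and 417.5 CPM in WT. Both groups covered nearly the same range, and the log2 fold change was 0.01 ± 0.147 (SE; 95% interval -0.32 to 0.34, edgeR adjusted p = 0.971). The log2 ratio of Txnip to Mlxipl averaged 1.47 ± 0.28 in ob/ob, against 1.28 ± 0.48 in WT (SD, n = 3; exact permutation p = 0.7). Txnip shares 606 of its 3123 exon bases with the antisense gene Gm15441, which held 6 to 9 counts per library.

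The steps around the 6 genes were described from a list of 18 genes of fructose and polyol handling. Of these, 16 were tested and 5 passed the test, each of them higher in ob/ob, where 3.77% of all tested genes were called higher. This list and those below were chosen with earlier results of these data known, so their counts are descriptions. Of the 12 enterocyte markers, 4 were called higher. The median log2 fold change of the 16 was 0.18. Slc2a2, which encodes GLUT2, the carrier for the exit of glucose and fructose to the blood, was at 764.9, 801.7 and 645.1 CPM in ob/ob, against 534.0, 544.8 and 486.7 CPM in WT. The groups were well apart, and Slc2a2 rose by 0.50 ± 0.091 on the log2 scale (SE), with an edgeR adjusted p of 0.0197. Leaving out ob/ob library 1 (0.47) or 2 (0.43) ended the call, as did scaling to the pan-epithelial genes (0.22). The log2 ratio of Slc2a2 to Slc2a5, the exit against the entry carrier, was 1.79, 1.84 and 1.51 in ob/ob, against 1.30, 1.47 and 1.38 in WT. Every ob/ob library was above every WT library, and the exact permutation p of 0.1 is the smallest that 3 against 3 libraries can give. This ratio was chosen after the data had been seen, and adjusted over the 5 ratios computed its p was 0.25.

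Akr1b8, an aldo-keto reductase of the family of aldose reductase, rose from 7.95 to 15.6 CPM, or by 0.97 ± 0.183 on the log2 scale (SE), with an edgeR adjusted p of 0.0220. The call was lost without ob/ob library 2 (0.86), ob/ob library 3 (0.88) or WT library 2 (0.93). Slc2a9, the urate carrier GLUT9, rose by 0.31 ± 0.062 (SE, adjusted p = 0.0258), and Gpd1, which turns dihydroxyacetone phosphate from fructose or glucose into glycerol 3-phosphate, by 0.30 ± 0.062 (SE, adjusted p = 0.0310). Neither Slc2a9 nor Gpd1 passed when any 1 of the ob/ob libraries was left out (0.30 to 0.33 for Slc2a9 and 0.27 to 0.32 for Gpd1). Slc2a9 was also lost without WT library 1 (0.26), and Gpd1 without WT library 2 (0.31) or 3 (0.27). Scaled to the pan-epithelial genes, their log2 fold changes were 0.04 for Slc2a9 and 0.02 for Gpd1, and with the total count as the scale 0.20 and 0.18, none past the threshold.

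Sis, the sucrase-isomaltase that releases fructose from sucrose at the brush border, had a log2 fold change of 0.42 (edgeR adjusted p = 0.0633) and Hk2, a hexokinase, of 0.49 (adjusted p = 0.0570). Sord, the sorbitol dehydrogenase that forms fructose from sorbitol, had -0.29 (adjusted p = 0.262). None of these passed, though every ob/ob library was above every WT library in Sis and in Hk2, as in 15.8% of all tested genes. Of 17 alternatives, Sis passed in 3, Hk2 in 4 and Sord in 2. Across the carriers of the SLC2 family outside the 6 genes, 2 of 9 tested passed, against 5.67% of all tested genes. These were Slc2a2 and Slc2a9, both of which rose and were already counted in the list of fructose and polyol handling. Slc2a1 and Slc2a4, carriers for glucose, had log2 fold changes of 0.16 and -0.45, which did not pass.

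**Figure D3:**
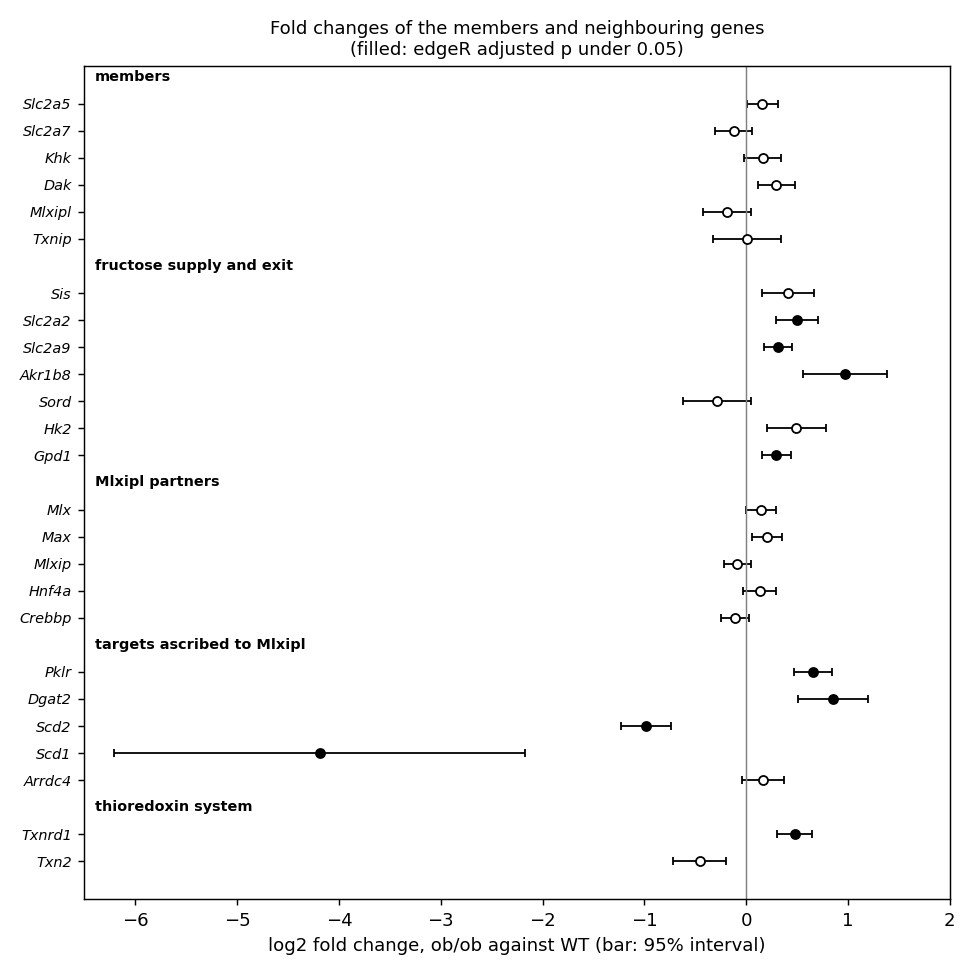
Log2 fold change of ob/ob against WT (x axis) with its 95% interval for the 6 genes and for named genes of the neighbouring steps, where filled points passed the edgeR threshold. All 6 members are open and lie between -0.19 and 0.30, while Slc2a2, Slc2a9, Akr1b8, Gpd1, Pklr, Dgat2 and Txnrd1 are filled above 0 and Scd1 and Scd2 below it.

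A list of 7 genes held partners of ChREBP, the paralogue Mlxip and related factors. All were tested and 0 passed in either direction, where 5.67% of all tested genes passed. Their median log2 fold change was 0.01. Max, a partner of Myc that binds E-boxes, had 0.21 (edgeR adjusted p = 0.0864). Mlx, the obligate partner of ChREBP, had 0.15 (adjusted p = 0.187), and Mlxip, the paralogue of Mlxipl, -0.09 (adjusted p = 0.375). The nuclear receptor Hnf4a had 0.13 and the coactivator Crebbp -0.11, and neither passed. At an unadjusted p under 0.05, 2 of the 7 passed, Max and Mlx, against 25.9% of all genes. The likelihood ratio test of edgeR and DESeq2 called 0 of the 7. With the total count as the scale, 1 passed, Crebbp at -0.23, and with pan-epithelial scaling 4 passed, Crebbp (-0.39), Mlxip (-0.36), Ep300 (-0.29) and Mxd1 (-0.26), where 40.6% of all genes passed.

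Genes ascribed to ChREBP as targets, largely from work on the mouse liver, did not share a direction. Of 28 listed, 26 were tested, 4 rose and 2 fell, where 3.77% of all tested genes were called higher and 1.91% lower. The median log2 fold change of the 26 was 0.15. Pklr, the pyruvate kinase of liver, kidney and gut and the classical carrier of the spaced motif shown above, was at 383.6, 410.1 and 373.8 CPM in ob/ob, against 276.0, 237.0 and 228.7 CPM in WT. The groups were far apart, and Pklr rose by 0.65 ± 0.081 on the log2 scale (SE, edgeR adjusted p = 0.00741). It passed in all 17 alternatives, at 0.38 to 0.74. The log2 ratio of Pklr to Mlxipl, chosen after the data had been seen, was 1.45, 1.48 and 1.48 in ob/ob, against 0.87, 0.32 and 0.70 in WT, with an exact permutation p of 0.1, the smallest possible, and 0.25 adjusted over the 5 ratios. The level of Pklr and that of its regulator's message thus stood in a different proportion in every ob/ob library than in every WT library.

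Dgat2, the last step of triglyceride synthesis, rose by 0.85 ± 0.153 on the log2 scale (SE, edgeR adjusted p = 0.0193), and the list also counts Slc2a2 and Gpd1 among those that rose. Dgat2 was at 0.94 without ob/ob library 1 and did not pass there. The genes that fell were both stearoyl-CoA desaturases, which make monounsaturated fatty acids. Scd2 fell from 40.5 to 20.5 CPM, or -0.98 ± 0.107 on the log2 scale (SE; edgeR adjusted p = 0.00546), and passed in all 17 alternatives. Scd1 was at 18.2, 4.01 and 10.4 CPM in ob/ob, against 87.1, 466.6 and 44.2 CPM in WT, or -4.19 ± 0.893 on the log2 scale (SE; edgeR adjusted p = 0.0330). WT library 2 was by far the highest in Scd1 and in Adipoq. In Mlxipl it was the highest by less, at 189.9 against 151.3 CPM in WT library 1. Without WT library 2 the log2 fold change of Scd1 was -2.59, still past the threshold. Scd1 did not pass when any 1 of the ob/ob libraries was left out (-4.78 to -3.80) or in limma-voom (-3.72). Of the 7 fat cell markers, 2 fell, Cfd and Car3, where 1.91% of all tested genes were called lower. The median log2 fold change of the 7 was -4.13, and 2 were above 0. Adipoq (-4.13, edgeR adjusted p = 0.0552) and Fabp4 (-2.33, adjusted p = 0.0570) did not pass. In both, every ob/ob library was below every WT library, and 32.0% of all tested genes had groups that did not overlap. The list summed to 94.8 to 103.4 CPM in ob/ob and 100.6 to 310.1 CPM in WT. Much of it came from Cidec, at 84.8, 96.9 and 92.5 CPM in ob/ob and 69.6, 86.0 and 70.0 CPM in WT. The sums therefore say little about the other fat cell markers. Cfd and Car3 did not pass when any 1 of the ob/ob libraries was left out (-7.51 to -5.86 for Cfd and -5.16 to -4.12 for Car3), and were at -4.87 and -3.16 without WT library 2, past the threshold. The lipogenic gene Fasn had a log2 fold change of -1.01 (adjusted p = 0.0769), with 342.2 CPM in WT library 2 against 153.1 and 151.5 CPM in the other two, was at -0.51 without that library, and passed in 5 of 17 alternatives. The part of fat in these values was not tested.

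**Figure D4:**
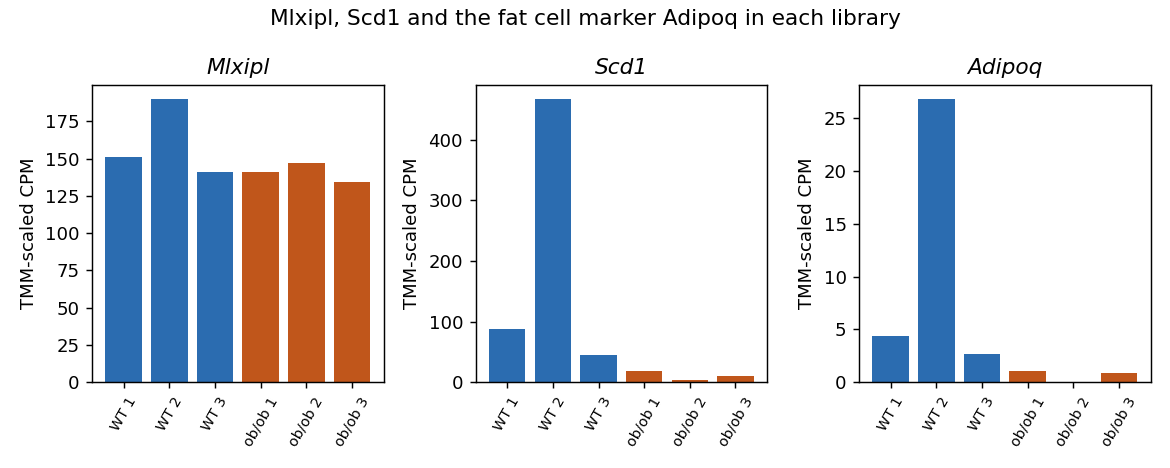
Level (y axes, TMM-scaled CPM, from 0) of Mlxipl, Scd1 and the fat cell marker Adipoq in each library, WT in blue and ob/ob in orange. WT library 2 is the highest in all 3 genes, at 189.9, 466.6 and 26.8 CPM.

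Txnip belongs to the alpha-arrestins and binds thioredoxin. Of 11 genes listed for these partners, 9 were tested, with a median log2 fold change of 0.11. Where 5.67% of all tested genes passed, 1 of the 9 did. It was Txnrd1, the cytosolic thioredoxin reductase, which rose by 0.48 ± 0.077 on the log2 scale (SE, edgeR adjusted p = 0.0141), a call lost when ob/ob library 1 (0.48) or 2 (0.44) was left out and with pan-epithelial scaling (0.20). Txn2, the mitochondrial thioredoxin, had -0.46 (edgeR adjusted p = 0.0515) and an unadjusted p of 0.00309, and passed in 9 of 17 alternatives, among them DESeq2 (adjusted p = 0.0105) and the edgeR likelihood ratio test (adjusted p = 0.00727). Arrdc4, another alpha-arrestin known as a ChREBP target and the holder of an E-box printed above, was at 45.9, 37.5 and 45.3 CPM in ob/ob, against 37.6, 35.6 and 41.0 CPM in WT. Its groups overlapped, with a log2 fold change of 0.17 (adjusted p = 0.273). Ddit4 and Arrdc2 had 0.45 and -0.35 and did not pass.

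Across the 6 libraries, the genes whose log2 level followed each of the 6 most closely were sought among 10409 genes with a mean of at least 5 CPM. The best match was Ttc22 for Slc2a5 (Pearson's r = 0.985), Trps1 for Slc2a7 (r = 0.991) and Cc2d1b for Khk (r = 0.997). For Dak it was Slc30a10 (r = 0.997), for Mlxipl Atp2b4 (r = 0.994) and for Txnip Dlg1 (r = 0.983). With 6 libraries and so many candidates, correlations this high are a description of these libraries, which share group and depth.

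The sign of several of these small differences changed with the scaling. When libraries were scaled to the pan-epithelial genes, the median of all tested genes moved from -0.01 to -0.29. Slc2a7 and Mlxipl then passed the threshold, with log2 fold changes of -0.40 (edgeR adjusted p = 0.0154) and -0.48 (adjusted p = 0.0113), in a setting where 5141 genes were lower and 211 higher in ob/ob. Slc2a5 was then at -0.11, Khk at -0.12 and Txnip at -0.26, none past the threshold. Relative to the summed counts of the 16 pan-epithelial genes, the 6 genes had log2 fold changes of -0.48 to 0.02. Abundant genes weigh most in that sum, such as Vil1 and Krt8, with log2 fold changes of 0.29 and 0.35 under TMM. Epcam had 0.16 and Cdh1 0.08, and the median of the 16 was 0.17, so this scale does not stand for epithelial message in general. With the total count alone as the scale, 328 genes were higher and 1407 lower and Txnip was at -0.11, against 496 higher and 251 lower with TMM.

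**Figure D5:**
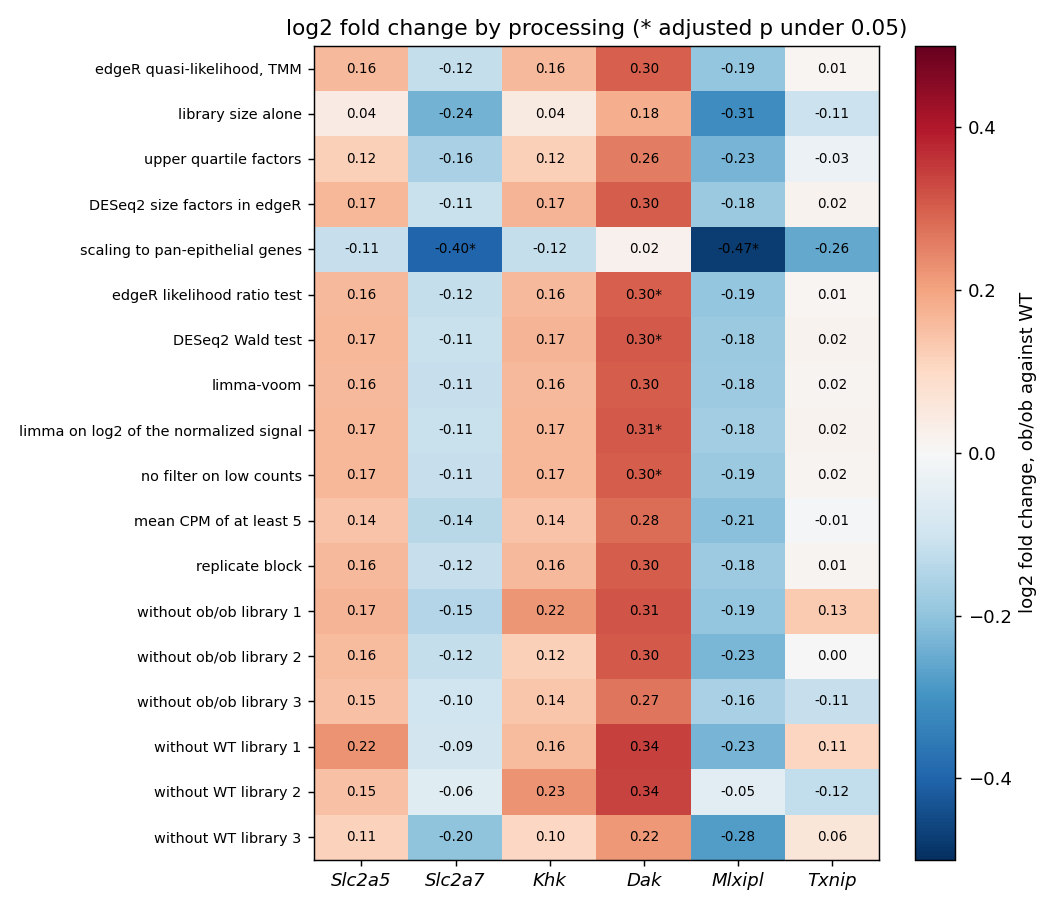
Log2 fold change of ob/ob against WT for the 6 genes (columns) under each processing (lines), by colour and number, where an asterisk marks an adjusted p under 0.05. Dak is above 0 throughout and passes in 4 alternatives, and Slc2a7 and Mlxipl are below 0 throughout and pass only when scaled to the pan-epithelial genes.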

How the data were processed

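RNA-seq libraries of proximal jejunum were compared between ob/ob and WT. According to the submitters' processing notes, reads were aligned to mm10 with TopHat2, counted with HTSeq 0.6p1 and analysed with edgeR 3.4.2. No source used here says if strand was used in counting, which leaves genes that overlap on opposite strands uncertain. The authors deposited raw counts, whole numbers for each gene symbol. The deposited normalized signal, which the authors scaled per library, was used in 1 alternative with a pseudocount of 1. The deposited table of the authors' fold changes and p-values was not used, nor were 36 columns of values per sample, 12 of them from outside the series.

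Genes that exceeded 1 CPM in 3 or more libraries entered the quasi-likelihood test of edgeR 4.0.16, run in R 4.3.3, with TMM factors and group alone as the model. Tests were two-sided, with Benjamini-Hochberg adjustment over all tested genes and a threshold of 0.05. The SE is the log2 fold change divided by the square root of F. Alternatives were other scalings, filters and tests (DESeq2 1.42.0, limma 3.58.1), a block for the replicate number, and the omission of each library. The 6 genes and the lists were chosen with earlier results of these data known. Up to 4 genes with the smallest p of a list were named. Hk2, Sis, Sord, Gpd1, Scd1, Mlxip, Ep300, Mxd1, Arrdc4, Muc13 and Fasn were named beyond that rule, after their values were seen, and Adipoq and Cidec as markers. Lct, Anpep, Cdx1, Cldn3, Lgals4, Vil1, Epcam and Cdh1 were also named beyond it, after their values were seen. Some list genes are counted in their lists but given no value here. Positions and exon lengths are those of GENCODE M21 on GRCm38. No pair of libraries was as alike as sampling noise alone would make it (lowest chi-square per degree of freedom 8.14). Figures were drawn with matplotlib 3.10.9.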

Additional observations from a re-analysis of the deposited data

How the results depend on the processing

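Of the 13168 genes, 747 passed the main test, against 1735 with the total count as scale, 5352 scaled to the pan-epithelial genes, 1404 by the edgeR likelihood ratio test, and 117 to 662 with 1 library left out (117 without ob/ob library 1, 195 without 2, 313 without 3, 299 without WT library 2). Of the 6 genes, 2 passed with pan-epithelial scaling (Slc2a7 at -0.40, Mlxipl at -0.48) and 1, Dak, under the likelihood ratio test (0.30), DESeq2 (0.30), limma on the signal (0.31) and no filter (0.30). With 1 library left out, 0 passed, and the log2 fold changes were 0.11 to 0.22 for Slc2a5, -0.20 to -0.06 for Slc2a7, 0.10 to 0.23 for Khk, 0.22 to 0.34 for Dak, -0.28 to -0.05 for Mlxipl and -0.12 to 0.13 for Txnip. The median of the 6 was -0.032 by total count and -0.19 by pan-epithelial scaling.

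Signs turned for Txnip by total count (-0.11), upper quartile factors (-0.031), pan-epithelial scaling (-0.26) and a minimum mean of 5 CPM (-0.0077), and without ob/ob library 3 (-0.11) or WT library 2 (-0.12). With pan-epithelial scaling they also turned for Slc2a5 (-0.11), Khk (-0.12), Max (-0.066), Mlx (-0.12), Hnf4a (-0.14), Slc2a1 (-0.12) and Arrdc4 (-0.10). Mxd1, at 0.01, was at -0.10 by total count, -0.027 by upper quartile factors, -0.26 by pan-epithelial scaling and -0.0039 with a minimum mean of 5 CPM, and at -0.018 to 0.071 with 1 library left out. Ep300, at -0.01, was at 0.0084 without WT library 2. The difference in log2 ratio was -0.062 to 0.07 for Khk to Slc2a5 and -0.08 to 0.34 for Txnip to Mlxipl with 1 library left out. Causes were not tested. Libraries of the same number in both groups did not deviate together (r of -0.083, 0.074 and -0.021). No pairing by number was seen, but such values cannot show how the libraries were handled. With the replicate number as a block, 730 genes and 0 of the 6 passed, and log2 fold changes were 0.16 for Slc2a5, -0.12 for Slc2a7, 0.16 for Khk, 0.30 for Dak, -0.18 for Mlxipl and 0.01 for Txnip. The 95% intervals of the 6 genes lay within -0.43 and 0.48.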
